A study of Mus musculus with 2 samples.

Results

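Antibody-secreting cells of the popliteal lymph node (PLN), the node that drains the ankle and hindpaw, were examined in single-cell RNA sequencing data of TNF transgenic (TNF-Tg) mice. The members were chosen by raw counts of unique molecular identifiers (UMIs): a cell with at least 200 genes was a member when it held at least 20 UMIs of Jchain and at least 3 of Xbp1. This rule gave 72 members of 16404 cells, 39 of 8183 in the Advanced library and 33 of 8221 in the Early library. Jchain (ENSMUSG00000067149, GRCm38 chr5:88519809-88527891) encodes the chain that joins IgM and IgA units, and Xbp1 (ENSMUSG00000020484, chr11:5520659-5525893) encodes a transcription factor of the secretory pathway. Since these genes chose the cells, their levels are given as a description only.

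TNF-Tg mice carry an additional TNF gene and develop inflammatory-erosive arthritis, and all animals here were TNF-Tg males on the C57BL/6 background. The Advanced library came from mice of more than 8 months of age and the Early library from mice of 5 to 6 months. Each library pooled 6 PLNs of 3 mice, so that each stage is 1 sample, the stage cannot be told apart from the age or the library, and no test between stages could be made. Wild-type nodes were not analysed here.

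Plasma cells are the end stage of the B cell lineage and secrete antibody, and plasmablasts are their dividing precursors. On this path the genes of B cell identity are switched off, the endoplasmic reticulum (ER) expands, and transcripts of 1 heavy chain and 1 light chain come to fill much of the cell's messenger RNA. In a lymph node such cells are known to gather in the medullary cords and sinuses, and some leave for the bone marrow.

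The Advanced library held 83148059 UMIs with a median of 7837 per cell, and the Early library 67610110 with a median of 6643. Members held medians of 38049 UMIs (3388 to 114402) in the Advanced library and 41807 (11388 to 107298) in the Early library, and together they carried 2.05% and 2.10% of the UMIs of their libraries. The comparison B cells below, 5284 Advanced and 7468 Early cells chosen by B cell receptor genes, had medians of 7429 and 6577 UMIs. Of the barcodes, 20 occurred in both libraries, and none of them belonged to a member. No doublets were removed. Levels are UMIs per 1000000 non-immunoglobulin UMIs of a group of cells, written CPM, and every interval in brackets is a 95% interval that covers counting error only, not the spread between mice.

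Members made up 0.477% of Advanced cells (0.339 to 0.651) and 0.401% of Early cells (0.276 to 0.563), a ratio of 1.19 with an interval of 0.728 to 1.95 that includes 1. Among cells of the B lineage the shares were 0.733% in the Advanced and 0.440% in the Early library, a ratio of 1.67 (1.02 to 2.73). Just inside the rule, 3 Advanced and 3 Early members had 20 to 29 Jchain UMIs, and 3 Advanced and 9 Early members had 3 or 4 Xbp1 UMIs. Just outside it, 12 Advanced and 11 Early cells reached the Jchain minimum but not that of Xbp1, with Jchain at 25.5 and 24 UMIs in the median and at most 49 and 37.

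The members fell into 2 kinds. In 50 of them immunoglobulin genes took 10.1% to 77.4% of all UMIs, in the other 22 they took 0.190% to 4.32%, and no member lay between. This limit of 10% was set after the values were seen. The 50 Ig-rich members, 29 Advanced and 21 Early, fitted the label. Sdc1, which encodes the plasma cell surface proteoglycan CD138, had a UMI in 26 of 29 Advanced and 20 of 21 Early cells, and Mzb1, a chaperone of antibody assembly, had medians of 76 and 74 UMIs per cell. The 22 Ig-low members went against the label in part. Mzb1 was found in them too, with medians of 39.5 (0 to 275) UMIs in Advanced and 38 (12 to 197) in Early Ig-low cells. Sdc1, however, had a UMI in only 2 of 10 Advanced and 0 of 12 Early Ig-low cells. The cells' immunoglobulin share had medians of 0.798% and 0.943% in the 2 libraries. They are therefore called by this property and not by a cell type.

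Ig-rich members numbered 0.354% of Advanced cells (0.237 to 0.509) and 0.255% of Early cells (0.158 to 0.390), a ratio of 1.39 (0.764 to 2.56). For Ig-low members the shares were 0.122% and 0.146% with a ratio of 0.837 (0.324 to 2.11). The immunoglobulin share of Ig-rich cells ranged from 21.4% to 77.4% with a median of 51.6% in the Advanced library, and from 10.1% to 66.7% with a median of 57.6% in the Early library. Jchain had medians of 695 and 995 UMIs in Ig-rich cells, and of 36.5 and 53 UMIs in Ig-low cells. Xbp1 had medians of 24 and 29 UMIs in Ig-rich cells, and of 9 and 4 UMIs in Ig-low cells.

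**Figure D1:**
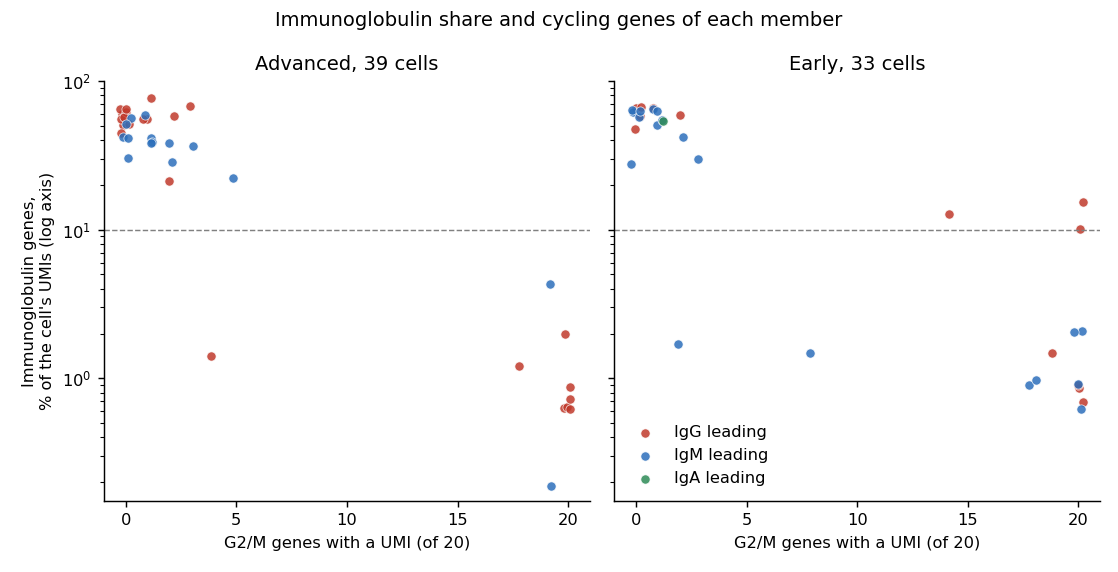
Immunoglobulin share of each member's UMIs (vertical, log axis) against the number of 20 G2/M genes with a UMI (horizontal), Advanced left and Early right, 1 point per cell, coloured by the class of the leading heavy chain gene. The dashed line at 10% separates Ig-rich from Ig-low members. Most Ig-low members hold nearly all of the G2/M genes, and the 3 Ig-rich members far to the right are Early cells with IgG as the leading class.

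Each antibody is built from a heavy chain and a light chain, and each chain joins a variable (V) gene to a constant gene. The V genes named most often among the members are shown first, since the same pairing returned in several cells. Ighv1-26 lies at GRCm38 chr12:114788372-114788805 and Ighv1-76 at chr12:115847881-115848331, both on the minus strand of the heavy chain locus, and Igkv10-96 at chr6:68631963-68632442 on the minus strand of the kappa locus. The last 294 bases of the GENCODE M21 transcripts are printed 5′ to 3′ as germline reference sequence, not as the cells' own rearranged sequence, and capitals in the first pair mark the 43 bases at which the heavy V genes differ.
Ighv1-26: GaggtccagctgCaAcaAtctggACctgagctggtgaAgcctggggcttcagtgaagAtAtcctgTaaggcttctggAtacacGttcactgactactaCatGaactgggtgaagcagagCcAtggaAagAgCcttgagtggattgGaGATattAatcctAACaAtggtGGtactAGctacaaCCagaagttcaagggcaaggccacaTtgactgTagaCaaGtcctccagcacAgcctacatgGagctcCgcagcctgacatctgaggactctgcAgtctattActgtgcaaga
Ighv1-76: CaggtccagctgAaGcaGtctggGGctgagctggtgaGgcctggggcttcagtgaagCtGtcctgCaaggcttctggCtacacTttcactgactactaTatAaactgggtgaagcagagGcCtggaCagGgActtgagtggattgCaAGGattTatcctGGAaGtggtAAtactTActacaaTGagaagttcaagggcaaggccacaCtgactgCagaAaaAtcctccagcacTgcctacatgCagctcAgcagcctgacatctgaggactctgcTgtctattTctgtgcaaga
Igkv10-96: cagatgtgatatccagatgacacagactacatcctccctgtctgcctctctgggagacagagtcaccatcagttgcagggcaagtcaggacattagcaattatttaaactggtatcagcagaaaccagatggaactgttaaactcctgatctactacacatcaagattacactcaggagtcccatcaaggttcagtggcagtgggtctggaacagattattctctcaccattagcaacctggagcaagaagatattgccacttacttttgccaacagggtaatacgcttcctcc

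The 2 heavy V genes were identical at 85.4% of these bases. Igkv10-96 and its relative Igkv10-94 were identical at 94.6%, so reads of such close copies may be split between them. Libraries were read near the 3′ end of transcripts, far from the V gene, and a V gene was therefore assigned only where it had at least 10 UMIs and at least 50% of that kind's V UMIs in the cell. In 48 members, 29 Advanced and 19 Early, both a heavy and a light V gene were assigned, and 45 of these were Ig-rich.

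Heavy chain class is set by the constant gene, with Ighm for IgM, the Ighg genes for the IgG classes and Igha for IgA. In the Advanced library 16 of 29 Ig-rich cells were led by an IgG gene and 13 by Ighm. In the Early library 9 of 21 were led by an IgG gene, 11 by Ighm and 1 by Igha. The share of IgG cells was thus 55.2% (35.7 to 73.6) in Advanced and 42.9% (21.8 to 66.0) in Early Ig-rich cells, and the intervals overlap widely. Among the 16 Advanced IgG cells, 7 were led by Ighg2b, 5 by Ighg2c, 2 by Ighg3 and 2 by Ighg1. Of the Ighg1 cells 1 was shallow, with 472 genes, 1137 non-immunoglobulin UMIs and no Sdc1 UMI. Among the 9 Early IgG cells, 3 were led by Ighg2b, 3 by Ighg3, 2 by Ighg2c and 1 by Ighg1. IgG2c is the form that C57BL/6 mice make in place of IgG2a. No member was led by Ighe or by Ighd.

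The leading class was nearly pure. The leading heavy constant gene held at least 95% of the heavy constant UMIs in 27 of 29 Advanced and 20 of 21 Early Ig-rich cells. The Advanced exceptions were cell 2, with 9760 Ighm and 5310 Ighg2b UMIs, and cell 5, with 8827 Ighg2c and 1415 Ighg2b UMIs (cells are numbered within a library by their Jchain UMIs, highest first). Cell 2 had the most UMIs of all members, 114402, and also 145 UMIs of T cell marker genes. The Early exception was the cycling cell 18, with 211 Ighg2c UMIs at 87.2% of its heavy constant UMIs.

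Leading heavy chain genes took high counts. In IgG-led Ig-rich cells the leading gene had 500 to 10740 UMIs with a median of 7059 in the Advanced library, and 211 to 10447 UMIs with a median of 4552 in the Early library. In Ighm-led cells it had 706 to 9760 UMIs with a median of 3421 in the Advanced library, and 729 to 8173 with a median of 3706 in the Early library. The ranges of IgG-led and IgM-led cells overlapped in both libraries. Over all heavy constant UMIs of Ig-rich cells, IgG genes took 68.1% in the Advanced and 48.2% in the Early library, and the highest cell alone gave 9.47% and 23.7% of those IgG UMIs.

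**Figure D2:**
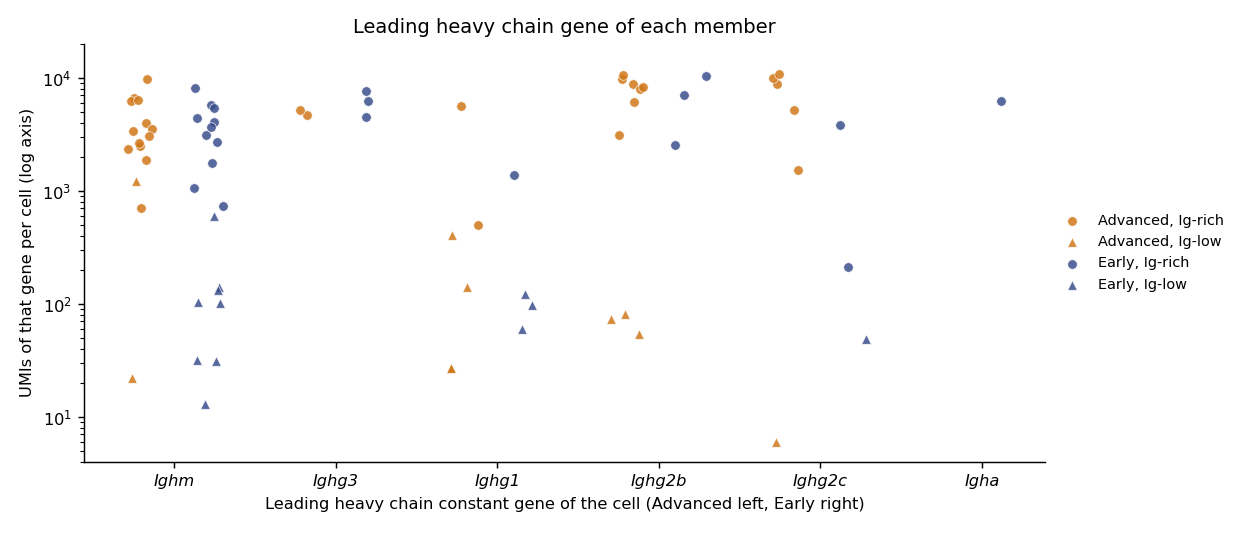
UMIs of the leading heavy chain constant gene in each member (log axis), by gene, with Advanced cells left and Early cells right of each tick and with circles for Ig-rich and triangles for Ig-low members. Ig-rich cells reach 10740 UMIs, and the Ighg2b column holds 7 Advanced and 3 Early Ig-rich cells.

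Immunoglobulin transcripts were also found in cells that do not make them, which limits what a low count shows. An Ighg2b UMI was present in 38.1% of the 641 Advanced T cells and in 5.36% of the 112 Early T cells, at 49.7 and 5.15 CPM, where T cells had medians of 9744 and 8876.5 UMIs. In Ig-rich members any Ighg2b UMI was found in 22 of 29 Advanced and 4 of 21 Early cells, while it led the heavy chain in 7 and 3 of them. The leading genes of Ig-rich cells, at 211 UMIs or more, lay far above this background. The Ig-low members were closer to it. Their leading heavy gene had as few as 6 UMIs in an Advanced cell and 13 in an Early cell, and their classes (2 IgM and 8 IgG in the Advanced library, 8 IgM and 4 IgG in the Early library) are given with that limit.

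Kappa was the leading light chain of all 29 Advanced and of 19 of 21 Early Ig-rich cells. Lambda led in 2 Early IgM cells, cells 1 and 2, with 29743 and 17413 UMIs of Iglc1. For the Advanced library 0 of 29 allows a lambda share of up to 11.9% (exact binomial). The leading light chain gene held at least 95% of the light constant UMIs in 28 of 29 Advanced and 20 of 21 Early Ig-rich cells. Light chain UMIs exceeded heavy chain UMIs in all Ig-rich cells of both libraries, with a median of 2.33 light per heavy UMI in the Advanced and 3.08 in the Early library.

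Among the 48 members with both V genes assigned there were 39 different pairs, from 34 heavy and 30 light V genes. Only 4 pairs occurred in more than 1 cell. Ighv1-26 with Igkv10-96 was found in 5 Advanced cells, namely cells 15, 16 and 25 with Ighg2b, cell 18 with Ighg3 and cell 19 with Ighg2c, at 38 to 146 UMIs of the heavy and 75 to 190 of the light V gene. Ighv1-76 with Igkv10-96 was found in Advanced cells 21 (Ighg2c) and 26 (Ighg2b) and in Early cells 16 and 17 (both Ighg2b), and was the only pair seen in both libraries. Ighv1-80 with Igkv4-55 was shared by Advanced IgM cells 4 and 7. Ighv11-2 with Igkv14-126, a pair known from B-1 cells in mice, was shared by Early IgM cells 12 and 15. A shared pair of V genes does not show that cells descend from the same B cell, because the junctions were not measured and the mice of a library were pooled.

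Igkv10-96 was the light V gene of 10 members, 7 Advanced and 3 Early, and all of them were Ig-rich and led by an IgG gene. It was assigned in 7 of 16 Advanced IgG cells (43.8%, 19.8 to 70.1) and 0 of 13 Advanced IgM cells (up to 24.7%), and in 3 of 9 Early IgG cells (33.3%, 7.49 to 70.1) and 0 of 11 Early IgM cells (up to 28.5%). These intervals treat cells as independent. Of the 7 Advanced cells, however, 5 shared Ighv1-26 and 2 shared Ighv1-76, and whether such cells are related was not measured. If they are, the intervals are too narrow. In comparison B cells with an assigned light V gene (at least 3 UMIs), Igkv10-96 was found in 3.02% of 232 Advanced and 3.16% of 158 Early cells. No T cell of either library held a UMI of it. Igkv17-127, in contrast, was found in 5 Advanced cells with 5 different heavy V genes, 3 led by Ighm and 2 by IgG genes. V genes were singled out here after their counts were seen.

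The genes of the secretory pathway were the most prominent group of Ig-rich members. A gene was counted as higher or lower when it reached 100 CPM in 1 group, had a UMI in at least 5 cells of the higher group and had a ratio interval wholly beyond 2-fold, also without the highest cell of each group. Of 1305 genes tested in both libraries, 211 (16.2%) were higher and 85 (6.51%) lower in Ig-rich members than in comparison B cells. Over all members the counts were 203 (14.4%) and 84 (5.97%) of 1407 genes. With immunoglobulin UMIs kept in the totals the balance turned, to 74 higher and 416 lower genes for Ig-rich members and 81 and 195 for all members, so the counts below hold for levels relative to the non-immunoglobulin UMIs. Members were chosen to differ from B cells, so these counts describe the groups and test nothing.

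Of the 87 genes in 5 secretion lists, 70 were tested in both libraries, 62 were higher in Ig-rich members than in comparison B cells and none was lower (Spcs2 stands in 2 lists). With immunoglobulin UMIs in the totals 37 secretion genes were higher and none was lower. The summed level of the lists, without those UMIs, was 51120 CPM in Ig-rich members and 7280 in B cells of the Advanced library, and 56826 against 7314 in the Early library. The median log2 ratio of these genes was 2.59 in the Advanced and 2.67 in the Early library, against 0.10 and 0.32 over all genes tested. In Ig-low members the lists summed to 17743 CPM in the Advanced and 10705 in the Early library, between the other groups.

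Of 18 tested genes of translocation and signal peptide cleavage, 14 were higher, among them Ssr4, a subunit of the translocon-associated complex, at 3401 and 3188 CPM in Advanced and Early Ig-rich members, against 180 and 173 in B cells. Sec61b, a subunit of the channel itself, stood at 1744 and 2102 CPM, against 298 and 291. Sec61a1, the core of the same channel, was not counted as higher, with 294 and 268 CPM, against 196 and 223 in B cells. Spcs2 of the signal peptidase reached 1052 and 1278 CPM, against 135 and 141.

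Of 22 folding genes, 20 were higher. Hsp90b1, the ER form of HSP90, had 1 to 537 UMIs per Ig-rich cell with a median of 28 in the Advanced library, and 2 to 263 with a median of 37 in the Early library. Its levels were 2923 and 3297 CPM, against 170 and 188 in B cells. Creld2, an ER protein of folding stress, had 0 to 103 UMIs per cell (median 8) in Advanced and 2 to 37 (median 8) in Early Ig-rich cells, 46.7 and 49.1 times the levels of B cells. The highest Advanced counts of Hsp90b1 and Creld2 were both in cell 2, which also held 145 UMIs of T cell marker genes. The next highest Advanced Ig-rich cells were cell 11 with 143 Hsp90b1 UMIs and cell 12 with 44 Creld2 UMIs. Fkbp11, a prolyl isomerase of secretory cells, stood at 301.5 and 297.6 CPM, against 2.92 and 3.67. Canx and Ero1lb, encoding calnexin and an oxidase of disulfide formation, were the tested folding genes that were not counted as higher.

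All 10 tested genes for the disposal of misfolded protein were higher. Derl3, part of the channel that returns misfolded protein to the cytosol, had 0 to 46 UMIs per cell (median 7) in Advanced and 0 to 23 (median 6) in Early Ig-rich cells, 446 and 412 CPM, against 1.36 and 1.56 in B cells. Its highest Advanced count was again in cell 2, followed by 32 UMIs in cell 5. Edem1 and Herpud1, which act in the same disposal route, stood at 633 and 709 and at 880 and 760 CPM in Ig-rich members, against 28.1 and 24.4 and against 81.1 and 62.2 in B cells. N-glycosylation had 7 of 8 tested genes higher and transport from ER to Golgi 12 of 13, with Lman1, a cargo receptor, at 335 and 337 CPM, against 26.9 and 28.5. Of the respiratory chain, in contrast, 2 of 24 genes were higher and none was lower, with Ndufa1 at 5.04 and 5.78 times the level of B cells.

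**Figure D3:**
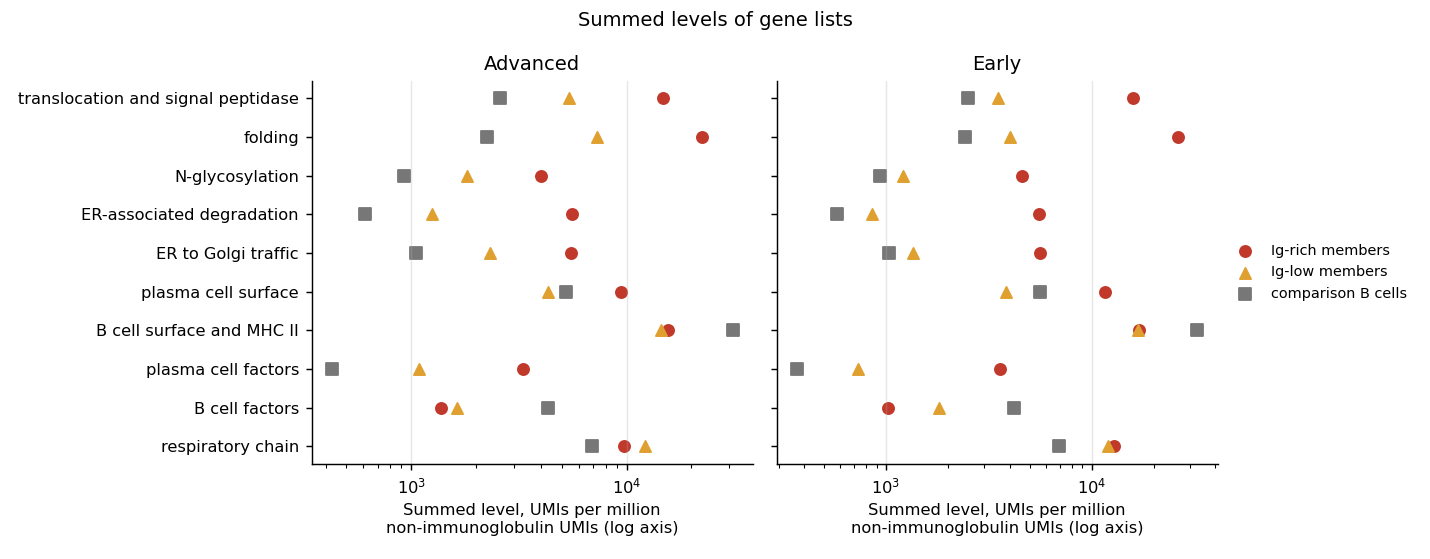
Summed levels of 10 gene lists (horizontal, UMIs per 1000000 non-immunoglobulin UMIs, log axis) in Ig-rich members, Ig-low members and comparison B cells, Advanced left and Early right, 1 point per group and list. The 5 upper lists are the secretion genes, for which Ig-rich members stand highest, Ig-low members between and B cells lowest in both libraries.

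The promoters of these genes, which stood high together, were searched for the motif of the ER stress response, in which CCAAT is followed after 9 bases by CCACG, and for CCACG alone, on either strand. RefSeq promoters on GRCm38.p6 (300 bases, 250 of them before the start) matched 69 of the 87 genes. A gene was counted when any of its promoters held a match. CCACG was found in 57 of 69 genes (82.6%), against 9589 of all 27025 genes with a promoter (35.5%). The full motif was found in 9 of 69 (13.0%), against 37 of all 27025 genes (0.137%). Of the folding genes 18 of 19 held CCACG and 7 the full motif, and of the disposal genes 11 of 12 and 2. CCACG was found in 43 of 51 secretion genes counted as higher and in 14 of 18 others, and the full motif in 7 and 2 of them. A match describes the letters only. The promoters of Derl3 (chr10:75893148-75893447, plus strand), Creld2 (chr15:88819396-88819695, plus) and Hsp90b1 (chr10:86705395-86705694, minus) are printed because these genes are described above and hold the full motif, whose letters are in capitals and which Hsp90b1 holds in 2 copies.
Derl3: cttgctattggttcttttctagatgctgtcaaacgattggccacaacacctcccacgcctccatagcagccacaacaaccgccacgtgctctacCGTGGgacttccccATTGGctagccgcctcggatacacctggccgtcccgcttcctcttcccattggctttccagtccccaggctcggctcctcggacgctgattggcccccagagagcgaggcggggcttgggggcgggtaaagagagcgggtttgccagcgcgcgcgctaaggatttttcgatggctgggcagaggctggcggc
Creld2: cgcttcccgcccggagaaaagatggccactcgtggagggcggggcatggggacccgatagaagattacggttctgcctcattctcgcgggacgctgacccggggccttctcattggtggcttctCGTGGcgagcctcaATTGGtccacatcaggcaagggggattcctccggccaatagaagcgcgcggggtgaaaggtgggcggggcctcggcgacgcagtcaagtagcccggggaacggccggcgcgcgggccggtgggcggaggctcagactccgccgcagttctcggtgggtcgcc
Hsp90b1: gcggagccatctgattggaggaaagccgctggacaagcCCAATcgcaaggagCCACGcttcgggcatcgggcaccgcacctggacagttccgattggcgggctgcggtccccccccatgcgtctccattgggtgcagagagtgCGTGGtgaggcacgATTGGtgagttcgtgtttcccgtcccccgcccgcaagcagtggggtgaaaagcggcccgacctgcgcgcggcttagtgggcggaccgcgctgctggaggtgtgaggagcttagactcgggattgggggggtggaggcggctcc

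Derl3 and Creld2 hold the motif as its reverse complement, and Hsp90b1 in both orientations. The other genes that were higher and held it were Dnajc3, Pdia6, Hspa5 and Calr, which encode ER chaperones or their partners.

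Outside the lists, the genes with the largest ratios to B cells in Ig-rich members included Prg2 and Slpi. Prg2 (ENSMUSG00000027073, chr2:84980461-84983632), best known for the major basic protein of eosinophil granules, stood at 2207 and 736 CPM, against 1.27 and 0.193 in B cells. Slpi, a secreted protease inhibitor, stood at 4085 and 2739 CPM, against 9.30 and 2.36. Tent5c, a poly(A) polymerase known to stabilise immunoglobulin transcripts, stood at 464 and 539 CPM, against 4.05 and 2.07. Chst1, a sulfotransferase, and Pon3, a paraoxonase, had 220 and 136 and 173 and 385 CPM, against 0.784 and 0.211 and against 1.53 and 1.00 in B cells.

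The transcription factors divided by role. Of 7 tested plasma cell factors 4 were higher (Prdm1, Ell2, Creb3l2 and, by the rule, Xbp1) and none was lower. Prdm1, which encodes the repressor Blimp-1, had a UMI in 18 of 29 Advanced and 19 of 21 Early Ig-rich cells and stood at 100.5 and 194 CPM, against 2.56 and 2.07 in B cells. Ell2, an elongation factor that favours the secreted form of heavy chain transcripts, was at 162 and 215 CPM, against 18.8 and 14.3. Irf4 had 240 and 138 CPM, against 58.6 and 54.1, and was not counted in both libraries. Of 11 tested B cell factors 8 were lower and none was higher. Pax5, the factor of B cell identity, stood at 28.2 and 37.2 CPM, against 269 and 255, and Ciita, which drives MHC class II genes, at 15.9 and 15.9 CPM, against 147 and 147.

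Surface genes followed the same division. Of 20 tested surface and antigen presentation genes of B cells, 14 were lower in Ig-rich members in both libraries and none was higher. Ms4a1, encoding CD20, was at 169 and 120 CPM, against 947 and 1014, and Cr2, a complement receptor, at 52.9 and 39.9, against 354 and 407. H2-Aa of MHC class II was lower, at 851 and 1116 CPM, against 4118 and 4175. Cd74, which encodes the invariant chain of MHC class II, was not, at 8582 and 9701 CPM, against 11272 and 11817.

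Of 17 tested plasma cell surface genes, 9 were higher and none was lower. Tnfrsf17 encodes BCMA, a receptor for the survival factors APRIL and BAFF. It had 0 to 16 UMIs (median 2) per Advanced and 0 to 17 (median 4) per Early Ig-rich cell, 153 and 252 CPM, against 0.169 and 0.0352 in B cells. Cd28, a co-stimulatory receptor better known from T cells, had a UMI in 18 of 29 and 16 of 21 Ig-rich cells, at 106 and 122 CPM, against 0.763 and 0.176. The highest Advanced cells were cells 2 and 31, with 15 and 9 of 60 UMIs, which also held 145 and 136 UMIs of T cell markers. No single Early cell held more than 8 of 46. Sdc1 stood at 307 and 255 CPM, against 2.12 and 0.686, with at most 32 UMIs in an Advanced and 11 in an Early cell. In T cells a Sdc1 UMI was found in 1.56% and 3.57%. Slamf7 stood at 321 and 396, Ly6a at 1417 and 1411 and the amino acid transporter chain Slc3a2 at 818 and 903 CPM, all higher than in B cells.

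Of 5 tested homing genes 1 was higher and 1 lower, where the shares over all genes were 16.2% and 6.51%. Selplg, encoding a selectin ligand, was higher at 153 and 104 CPM, against 47.4 and 27.8, and S1pr1, the receptor for exit from the node, was lower at 35.3 and 18.6, against 119 and 137. Cxcr4, which guides plasma cells to the medulla and bone marrow, had 47.6 and 71.7 CPM in Ig-rich members, against 51.6 and 78.2 in B cells. Itga4, an integrin chain, had 155 and 151, against 134 and 122. Ccr10 had 18 UMIs in 7 Advanced members and 33 in 6 Early members, 19 of them in the IgA cell. Of 5 tested survival genes only Tnfrsf17 and Cd28 were higher, and Mcl1 stood at 631 and 675 CPM, against 402 and 390. The TNF receptor genes were scarce, with 1 and 0 UMIs of Tnfrsf1a and 10.6 and 5.31 CPM of Tnfrsf1b in Advanced and Early Ig-rich members.

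Cycling divided the members largely, but not fully, along the same line as the immunoglobulin share. A cell was called cycling when at least 3 of 20 G2/M genes had a UMI after its non-immunoglobulin UMIs were thinned to 3000. By this measure 9 of 38 Advanced members (23.7%, 11.4 to 40.2) and 13 of 33 Early members (39.4%, 22.9 to 57.9) were cycling, and 1 Advanced cell was too shallow. Without thinning the counts were 13 of 39 and 15 of 33. Comparison B cells were cycling in 1.60% and 0.798%. Of the Ig-low members 9 of 10 Advanced and 10 of 12 Early cells were cycling, and of the Ig-rich members 0 of 28 and 3 of 21.

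The 3 cycling Ig-rich cells of the Early library were cells 17, 18 and 19, led by 2541 Ighg2b, 211 Ighg2c and 1391 Ighg1 UMIs. Their immunoglobulin shares of 15.3%, 10.1% and 12.7% were the lowest of all Ig-rich members. They held 20, 20 and 14 of the G2/M genes before thinning. Cell 17 carried the V pair Ighv1-76 and Igkv10-96 that the non-cycling Early cell 16 carried too. The Ig-low member with the highest immunoglobulin share, Advanced cell 27 at 4.32%, was also cycling, with 1216 Ighm UMIs and both V genes assigned. Counts of cycling cells by kind thus depend on a limit set after the values were seen.

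Between Ig-rich and Ig-low members, 160 of 1498 genes tested in both libraries (10.7%) were higher and 140 (9.35%) lower in Ig-rich cells. The lower genes included 15 of 19 tested G2/M genes, such as Top2a, a topoisomerase of dividing cells. They also included Rgs13, a regulator of chemokine receptor signals, which had 3 and 0 UMIs in Advanced and Early Ig-rich members, against 155 and 151 in Ig-low members. Higher in Ig-rich members were 38 of 71 tested secretion genes, with 9 of 10 disposal genes and 15 of 22 folding genes among them, and 8 of 16 plasma cell surface genes. Trf, encoding transferrin, had 188 and 85 UMIs in Ig-rich members and none in Ig-low members. No secretion gene was lower. Dissociation stress genes such as Fos and Jun were also higher in Ig-rich members (8 of 9 tested), and their part in the other differences was not tested.

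Between the stages few genes differed. Of 1445 genes tested over all members, 4 (0.277%) were higher and 3 (0.208%) lower in the Advanced library. Prg2, Slpi, Glipr1 and Ier2 were higher, and Cd72, Ly6k and H2afx were lower. Of the higher genes only Prg2 kept its call with TMM factors, with all UMIs in the totals and with each cell weighted equally, and the number of lower genes was 2 to 47 over the alternatives tried. As 1 library stood for each stage, these are differences between libraries with no replicate check.

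Prg2 had the largest ratio, 4.09 (3.59 to 4.68), and 3.04 (2.63 to 3.52) without the highest cell of each library. Advanced Ig-rich cells held 2 to 446 UMIs with a median of 18, and all 29 had a UMI. Early Ig-rich cells held 0 to 36 UMIs with a median of 9, and 18 of 21 had a UMI. The ranges overlapped, but 1 Advanced cell, cell 21, held 446 of the 1264 UMIs. Within Ig-rich members the ratio was 3.00 (2.63 to 3.43), and 2.18 (1.88 to 2.52) without the highest cells, an interval that reaches below 2-fold. Advanced Ig-low members held 12 UMIs and Early ones 1.

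Slpi (chr2:164354070-164389095) rested on few cells. Advanced Ig-rich cells held 0 to 700 UMIs with a median of 7, and the second highest held 557. Early Ig-rich cells held 0 to 619 UMIs with a median of 4, and the second highest held 124. The ratio over all members was 2.19 (2.04 to 2.36), that without the highest cell of each library 3.90 (3.51 to 4.34), and that within Ig-rich members 1.49 (1.38 to 1.61). In Ig-low members Slpi had 234 UMIs in the Advanced library, 139 and 77 of them in 2 cells, against 16 in the Early library.

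Cd72, a co-receptor of B cells, differed mainly in Ig-low members. Advanced Ig-low cells held 0 to 4 UMIs with a median of 1, and Early Ig-low cells 1 to 32 with a median of 6, so that the ranges overlapped while all 12 Early cells had a UMI. The ratio was 0.113 (0.0549 to 0.210) in Ig-low and 0.516 (0.277 to 0.948) in Ig-rich members. The class mix also differed, as 8 of 10 Advanced Ig-low cells were IgG-led and 8 of 12 Early ones IgM-led. Early IgG-led cells 26, 27 and 30 held 1 Cd72 UMI each and cell 24 held 13, against 3 to 32 in the Early IgM-led cells. Advanced IgM-led cells 27 and 29 held 1 and 3. The part of class in the Cd72 ratio was not tested. H2afx, a histone variant of DNA repair, had 229 UMIs in Advanced and 441 in Early Ig-low members, and in Ig-rich members 12 against 73, of which 64 were in 1 cell. Glipr1 had 62 and 33 of its 136 Advanced Ig-low UMIs in 2 cells, against 34 in the Early library. Ier2, an immediate early gene, had 182 UMIs in Advanced and 57 in Early Ig-rich members. In non-cycling members H2afx had 13 UMIs in the Advanced and 1 in the Early library, too few to compare. Without members of 3 or more T cell or myeloid marker UMIs the Glipr1 ratio was 0.950, against 2.64 with them, and this choice took out 8 of 10 Advanced and 7 of 12 Early Ig-low members.

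Ly6k, a membrane-anchored protein of the Ly6 family, was lower in the Advanced library in few cells with high counts. It had 66 UMIs in 4 of 29 Advanced Ig-rich cells, 42 of them in cell 23, against 165 UMIs in 7 of 21 Early Ig-rich cells, with 59 and 39 in the highest. All other Ig-rich cells held none.

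**Figure D4:**
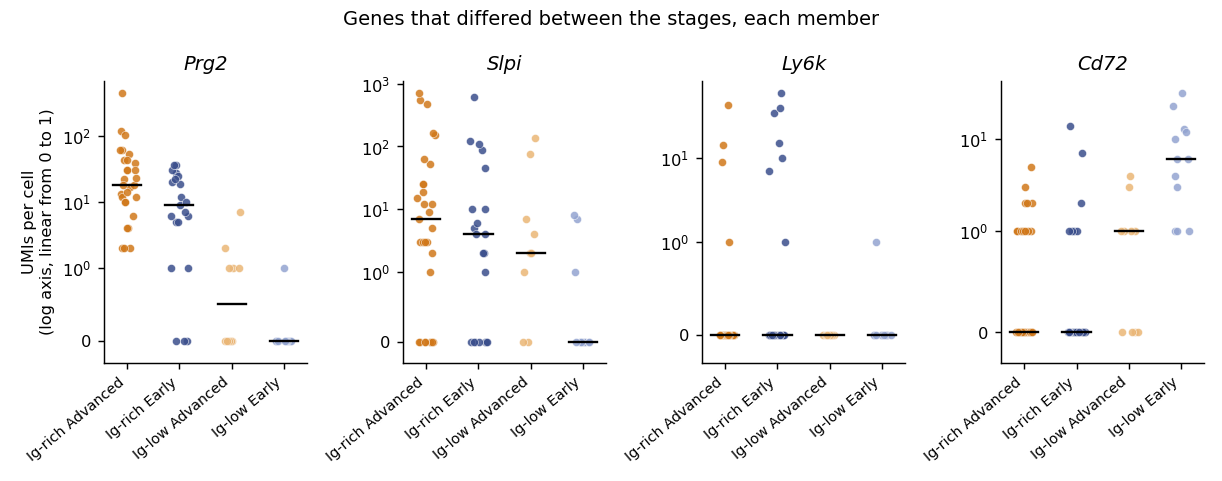
UMIs per cell of Prg2, Slpi, Ly6k and Cd72 (vertical, log axis that is linear from 0 to 1) in Ig-rich Advanced, Ig-rich Early, Ig-low Advanced and Ig-low Early members, 1 point per cell with a line at the median. Prg2 has a UMI in all 29 Advanced Ig-rich cells, Ly6k is at 0 in most cells, and Cd72 is higher in the Early Ig-low cells, where all 12 have a UMI.

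Within Ig-rich members 3 of 1341 tested genes (0.224%) were higher and 12 (0.895%) lower in the Advanced library. The higher genes were Trbc2, Maf and S100a4, all of which T cells express. Trbc2 had 63 UMIs in the Advanced library, 30 and 28 of them in cells 2 and 31, which also held 145 and 136 UMIs of T cell marker genes, and 0 in the Early library. Without the members that held 50 or more UMIs of another cell type's markers, none was higher. The 12 lower genes were Ly6k, Ddt and 10 genes of chromatin or dividing cells, among them Hist1h1b, with 13 UMIs in Advanced and 265 in Early Ig-rich members, and Mki67, with 22 and 99. These levels moved with the 3 cycling Early cells. In non-cycling Ig-rich cells without those of other markers, Ly6k, Fos, Trp53inp1 and E330020D12Rik were lower.

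No secretion gene differed between the stages over all members (0 of 65 tested) or within Ig-rich members (0 of 76). The median log2 ratio of these genes was 0.36 over all members, against -0.03 over all genes tested, and -0.10 within Ig-rich members, against -0.09, so that the sign depended on the cells taken. In Ig-low members the median was 0.83, against 0.09 over all genes tested. A ratio above 1 was found for 53 of 55 secretion genes and for 924 of all 1542 genes tested. Of all 1542 genes 9 were higher (0.584%) and 4 lower (0.259%) in the Advanced library. Of the 55 secretion genes 2 were called higher. They were Hsp90b1, with 551 UMIs in Advanced and 186 in Early Ig-low cells, and Manf, with 329 and 132. The highest cell held 46.6% of these Hsp90b1 UMIs in the Advanced and 41.9% in the Early library. Advanced cells 27, 28 and 37 held 257, 141 and 83 of them, and the other Advanced Ig-low cells 3 to 34 each. The Advanced Ig-low levels thus rested on few cells.

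By heavy chain class, 2 of 1178 genes tested in both libraries (0.17%) were lower and 0 (0%) higher in IgG-led than in IgM-led Ig-rich cells. They were Lag3, an inhibitory receptor best known from T cells, and Txndc5, a protein disulfide isomerase of the ER. Lag3 (chr6:124904361-124911705) had 1 UMI in 1 of 16 Advanced IgG cells, against 32 UMIs in 10 of 13 IgM cells with at most 10 in a cell. In the Early library it had 0 UMIs in 9 IgG cells, against 16 UMIs in 7 of 11 IgM cells. The Advanced ratio was 0.0375 (0.000921 to 0.224). Neither call held without the 3 cycling Early cells, all of them IgG-led, which gave 54.7% of the non-immunoglobulin UMIs of Early IgG cells. No gene was then lower in both libraries, and Ly6c2 was higher, with 380 of its 485 UMIs in Early members in cell 23. For Lag3, the highest IgG cell of each library held no more UMIs than the median IgM cell, at 1 UMI.

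Txndc5 (chr13:38500079-38528824) had 165 UMIs in Advanced IgG cells with a median of 6 per cell, against 583 in IgM cells with a median of 32. Early IgG cells held 199 UMIs with a median of 18, against 441 with a median of 32 in IgM cells. The ratios were 0.340 (0.284 to 0.404) and 0.308 (0.259 to 0.365), and the ranges per cell overlapped in both libraries. Without the cycling cells the Early ratio was 0.427 (0.348 to 0.522). Tnfrsf17 stood at 93.1 and 97.8 CPM in Advanced and Early IgG cells, against 204 and 484 in IgM cells, with ratios of 0.457 (0.273 to 0.742) and 0.202 (0.118 to 0.333), or 0.340 (0.184 to 0.591) in the Early library without the cycling cells, and was not counted in both libraries. Il10, named after its values were seen, had 1 and 3 UMIs in IgG cells, against 14 and 24 in IgM cells, but 13 of them were in 1 IgM cell in each library. Of 73 tested secretion genes Txndc5 alone was lower and none was higher in IgG cells. Cells 2 and 31, which carried T cell markers, were both IgM-led Advanced cells. They held 7 and 1 of the 32 Lag3 UMIs, and the Early IgM cells held at most 9 UMIs of T cell markers.

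**Figure D5:**
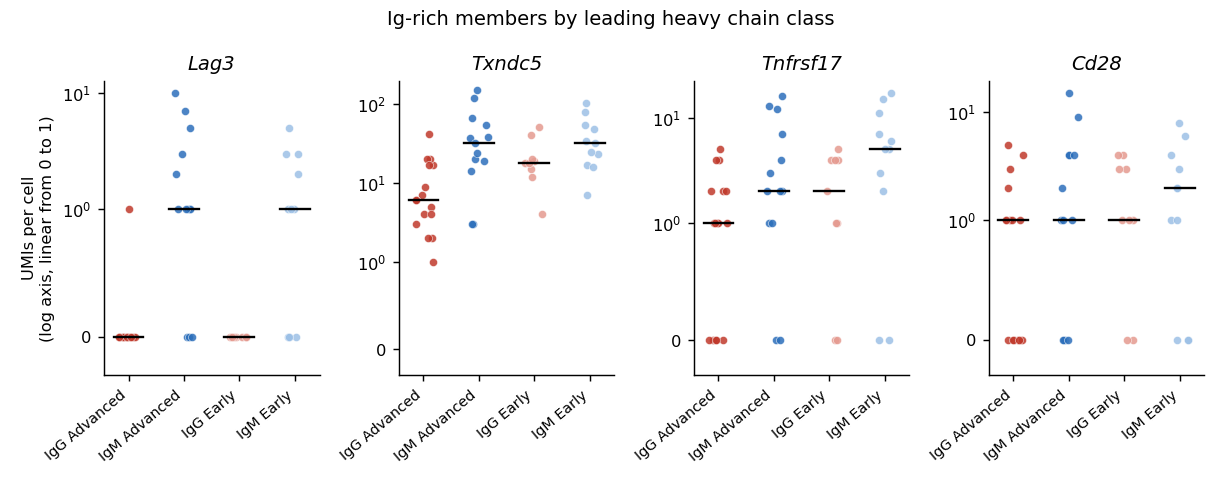
UMIs per cell of Lag3, Txndc5, Tnfrsf17 and Cd28 (vertical, log axis that is linear from 0 to 1) in IgG-led and IgM-led Ig-rich members, with IgG left of IgM for Advanced and then for Early cells, 1 point per cell and a line at the median. Lag3 has 1 UMI in all IgG cells together, against 32 UMIs in Advanced and 16 in Early IgM cells.

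Markers of other cell types were low in most members. T cell marker genes had a median of 1 UMI (0 to 145) in Advanced and 0 (0 to 9) in Early Ig-rich cells, and were at 0 in 10 of 29 and 16 of 21 cells. Myeloid markers reached 3 and 2 UMIs in Ig-rich cells. Besides cells 2 and 31, Advanced cell 13 held 172 UMIs of neutrophil and mast cell genes, 110 of them of the mast cell protease Mcpt4. Advanced cell 29, an Ig-low cell with 0 Mzb1 UMIs, held 55 UMIs of T cell and 70 of myeloid markers and 55 of Siglech, a gene of plasmacytoid dendritic cells. Without these 4 cells the members were 35 Advanced and 33 Early cells, with 68.6% and 39.4% of them IgG-led, against 61.5% and 39.4% with them.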

How the data were processed

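RNA was measured in single cells of popliteal lymph nodes, sorted as nucleated (Hoechst+) and viable (Sytox Green-), with the 10x 3′ assay. The deposited values are counts of UMIs per gene and barcode, made by the authors without normalization. The matrix headers name Cell Ranger 6.0.1, and the submitters' processing notes name Cell Ranger 3.1.0, Seurat 4.0.3 and mm10. Gene positions came from GENCODE M21 (GRCm38).

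Cells with fewer than 200 genes were left out (18 Advanced and 21 Early). Rows sharing a symbol were summed, and no doublets were removed. Comparison B cells had at least 5 UMIs over a set of B cell marker genes and no Cd3 UMI, T cells at least 3 Cd3 UMIs and at most 1 UMI of that set, and both had under 20 Jchain UMIs. Levels (CPM) are UMIs per 1000000, with immunoglobulin genes and Jchain left out of totals. Ratios have exact conditional Poisson intervals and shares exact Clopper-Pearson intervals, all 95%. With 1 library per stage no test was made. The members and lists were chosen with earlier results of these data known, and the Ig-rich limit after the values were seen.

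Named genes were all heavy and light constant genes, up to 6 of a list (the 3 highest and 3 lowest stage ratios at 100 CPM or more, or any member of the surface, homing, survival and factor lists), up to 12 per direction by stage, and the 2 highest cells of a value that rests on few cells. Other named genes were chosen for a large ratio or after their values were seen. Alternatives changed the rule, the normalization (including TMM factors from edgeR 4.0.16), the minimum level and the cells taken. Counting code was tested on simulated data. Python 3.11.15, numpy 2.4.6, pandas 2.3.3, scipy 1.17.1, matplotlib 3.10.9 and R 4.3.3 were used.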

Additional observations from a re-analysis of the deposited data

How the results depend on the processing

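No paired analysis was possible because each stage is 1 library, and no replicate could be left out. Of the alternatives for the main comparisons 64 values moved little and 33 moved. Over all members, 4 genes were higher by stage. This count became 1 with all UMIs in the totals, with TMM factors and with each cell weighted equally (Prg2 each time), 35 with a minimum of 10 CPM or none, 7 with no cell left out, 2 in non-cycling members, 9 in Ig-low members, and 0 in Ig-rich members without those of 50 or more UMIs of another cell type, also when non-cycling. The 3 lower genes became 5 with TMM, 7 with 10 CPM or no minimum, 5 with no cell left out, 23 with at least 50 Jchain and 5 Xbp1 UMIs, 47 without members of 3 or more T cell or myeloid marker UMIs (which removes 8 of 10 Advanced and 7 of 12 Early Ig-low members), and 12 in Ig-rich members, with or without those of other markers. Against B cells the 203 higher and 84 lower genes became 81 and 195 with all UMIs in the totals, or 74 and 416 for Ig-rich members. Between IgG-led and IgM-led cells the 2 lower and 0 higher genes became 0 and 1 without cycling cells, an alternative added after seeing the data. Cycling members, 23.7% of Advanced and 39.4% of Early cells, became 10.0% in the Advanced library under the stricter rule for members, and 0% and 14.3% in Ig-rich members. Lambda cells were 2.56% of Advanced members, and 0% in Ig-rich members, without members of 3 or more T cell or myeloid marker UMIs, or without members of 50 or more UMIs of another cell type. Without the highest cell, Ighg3 became 2.91% of Advanced heavy chain UMIs (5.90% with it) and 12.7% of Early ones (19.9%), and Ighg2b 11.6% of Early ones (21.5%). Values that changed direction were Glipr1, at 0.950 without members of 3 or more T cell or myeloid marker UMIs (2.64 with them), H2afx, at 7.51 (1.13 to 319) in non-cycling members (0.422 in all), which rests on 13 UMIs against 1 and is below the level at which genes were compared, and the summed secretion lists, at 0.900 in Ig-rich members, 0.930 without those of other markers and 0.862 when also non-cycling (1.24 in all). The cause was not tested. With 72 members, genes below 100 CPM could not be compared, and no interval covers the spread between mice.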
